A study of Oryctolagus cuniculus with 12 samples.

Results

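The genes described here are the cytokines, chemokines, their receptors and the leukocyte surface proteins that carried a name on an array of fetal rabbit heart ventricle. Their rule is one of symbols: every annotated gene whose current symbol begins with CCL, CXCL, CXCR, CCR, TLR, TNF or IFN, or with IL or CD and a digit, apart from CD36. This gave 30 of the 591 named genes, with 84 of the 43603 probes of the table. The study compared ventricles of 6 fetuses with intrauterine growth restriction (IUGR) with ventricles of 6 control fetuses, in 6 numbered pairs of 1 IUGR and 1 control sample. The titles call the IUGR samples treated. The sources used here do not give the method of restriction, the strain, the gestational age or what joins 2 samples into a pair, and any side effect of the method is confounded with the restriction: the 2 cannot be told apart. Total RNA of each ventricle went on an array of its own, in 1 colour.

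Cytokines are small secreted proteins through which immune, vascular and stromal cells signal to each other, and chemokines are those that guide leukocytes into a tissue. Toll-like receptors recognise microbial or cell-damage products and switch on cytokine genes such as IL1B, IL6 and TNF. In the heart the leukocytes are mainly resident macrophages, which enter before birth, while T and B cells are few in the fetus. In whole ventricle, fewer cells of a type and less RNA per cell cannot be told apart.

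The values are log2 probe signals, normalised by the authors so that the 12 arrays share 1 distribution. Each gene was read from its brightest probe, the one with the highest mean over the 12 arrays. Probes differ in how well they bind, so the place of a probe among all probes is given as a percentile and levels of different genes are not set against each other. Of the 30 genes, 11 had a brightest probe above the median probe (4.61 log2), 36.7% against 57.7% of all named genes and 50% of all probes. They were CD63, CD14, TLR2, IL1RN, TLR4, TNFSF13, CD247, CD4, TNFAIP6, IL1B and CXCR5. CD63 stood alone at the top, at percentile 99.0, and the next, CD14, was at percentile 73.1. The dimmest were TNFRSF4, at percentile 2.72, and CD3E, at percentile 2.20. Detection calls were not used here, so whether the dim probes report any transcript is not known.

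**Figure D1:**
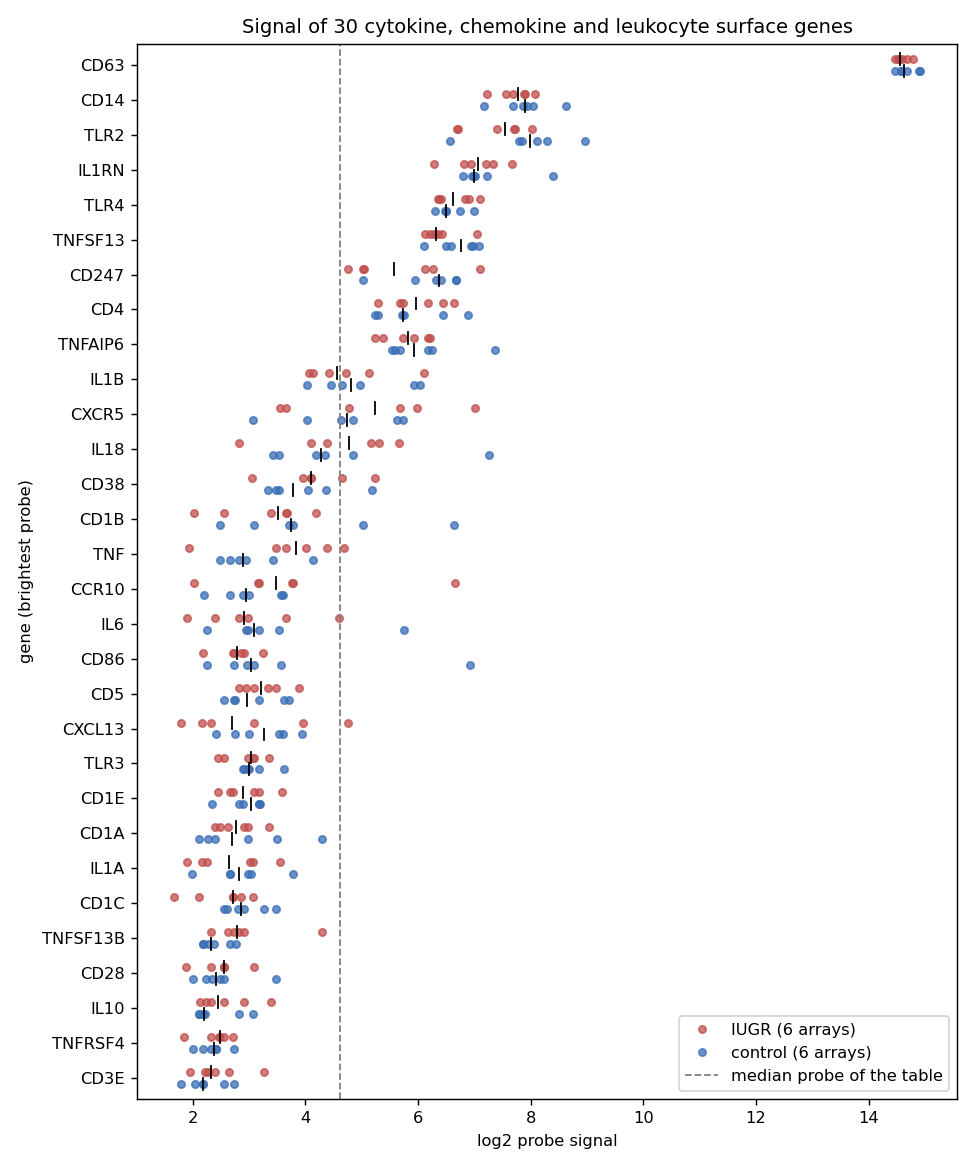
Log2 signal of the brightest probe of each of the 30 genes on the 6 IUGR arrays (red, upper row of each gene) and the 6 control arrays (blue, lower row), with a black tick at each group's median and a dashed line at the median probe of the table. The groups overlap for every gene, and the mean of 19 of the 30 genes lies left of the dashed line.

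The comparison asked which of these genes have another level in growth-restricted ventricles than in controls. None did by the test across the whole table: 0 of 30 genes passed an adjusted p of 0.05 in limma, with the pair as a block, where 0% of all 43603 probes did (lowest adjusted p = 0.982). At an unadjusted limma p under 0.05 there was 1 gene, TNFSF13B, which is 3.33% of the 30 against 3.58% of all probes (2.03% higher and 1.55% lower in IUGR) and 4.06% of the named genes (2.37% higher and 1.69% lower). The same gene was the only one with 1 sign in 6 of 6 pairs, which 2.25% of all probes and 2.54% of the named genes had (1.31% and 2.2% on the higher side). The groups overlapped for all 30 genes, and 0.0505% of all probes had groups that did not overlap. By the mean difference 18 genes were lower and 12 higher in IUGR, so that 60% were lower, against 48.4% of the named genes and 48% of all probes, of which 51.6% and 52% were higher. The median difference, IUGR minus control, was -0.11 log2 over the 30 genes, 0.0055 over the named genes and 0.0096 over all probes. These shares and medians are descriptions, and none was tested. Unless stated otherwise, the values below are log2 signals of single arrays or IUGR minus control differences in log2, given as the mean ± SD over n = 6 pairs, and every gene named had a limma adjusted p of 0.982 or above.

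The precision differed between genes. For 17 of the 30 genes the 95% interval of the difference lay between -1 and 1 log2, so that for them a difference of a factor beyond 2-fold lies outside the interval. These included 6 of the 11 brighter genes: CD63, CD14, IL1RN, TLR4, TNFSF13 and CD4. For 29 of the 30 genes, all but TNFSF13B, the SD across pairs exceeded the size of the mean difference. For the counts of 17 and 29 genes the share over the named genes or all probes is not given here, so neither marks these genes. Leaving aside CD63, the other 10 genes above the median probe had a median SD over the pairs of 0.72 log2. The 119 other named genes at the same signal levels had a median SD of 0.51, and the 9306 probes at these levels had one of 0.41. Of the 10, TNFSF13, TLR4 and CD14 had an SD below 0.51, and the comparison is a description without a test.

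**Figure D2:**
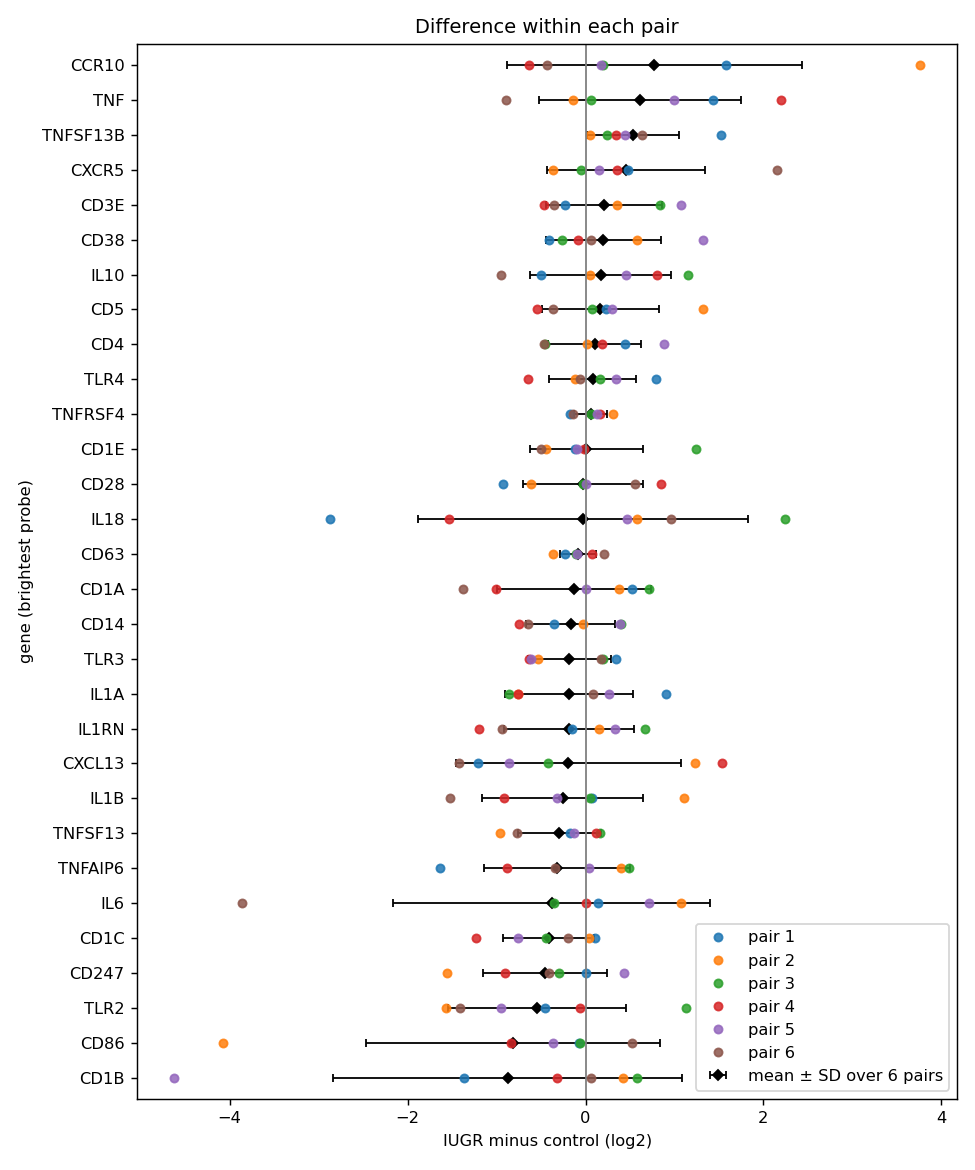
IUGR minus control difference in log2 for the brightest probe of each gene in each of the 6 pairs (coloured points), with the mean ± SD over the pairs (black diamond and bar), ordered from the highest mean to the lowest. Only TNFSF13B has all 6 points right of 0, and 4 of the widest bars have 1 distant point: -4.62 for CD1B, -4.07 for CD86, -3.86 for IL6 and 3.76 for CCR10. The IL18 points spread both ways, from -2.88 to 2.24.

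Among the interleukins and the interleukin 1 antagonist, 5 of 6 genes were lower by the mean and 1 was higher, with a median of -0.19 log2 and no call. IL1B, a fever-inducing cytokine of activated macrophages, ran from 4.06 to 6.10 (median 4.57) on the IUGR arrays and from 4.03 to 6.04 (median 4.82) on the control arrays. The groups covered almost the same range, and the difference was -0.26 ± 0.91 in 3 pairs each way. It was -0.0025 without pair 6 and -0.53 without pair 2. Its probe lay at percentile 51.8, and its 2 dimmer probes differed by 0.28 and -0.13, so the gene's probes do not share a sign. IL1RN, the natural antagonist that blocks the interleukin 1 receptor, had its probe at percentile 67.6. It ran from 6.28 to 7.66 (median 7.07) in IUGR and from 6.79 to 8.40 (median 7.0) in controls, with a difference of -0.19 ± 0.73. Control replicate 4 was highest at 8.40, with the other controls from 6.79 to 7.21, and without pair 4 the difference was 0.01. Its second probe also read highest in control replicate 4, at 7.37.

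IL18, which induces interferon gamma, differed by -0.03 ± 1.85, an average over opposite pairs: it differed by -2.88 log2 in pair 1 and by 2.24 in pair 3. The IUGR arrays ran from 2.82 to 5.65 (median 4.77) and the controls from 3.42 to 7.26 (median 4.28). Control replicate 1 stood out at 7.26, and all 7 IL18 probes were highest on that array, at 5.85 to 7.26. The difference without pair 1 was 0.54. Over the 591 named genes, control replicates 1 and 2 were the highest array most often, for 12.4% and 12.2% of genes. The other arrays were highest for 5.75% to 10.2%. IL6, a cytokine that drives the acute-phase response, ran from 1.89 to 4.60 (median 2.90) in IUGR and from 2.25 to 5.76 (median 3.08) in controls. Its difference of -0.38 ± 1.78 turned to 0.32 without pair 6, in which control replicate 6 read 5.76. The other 4 probes did not show that array as the highest, and all 5 probes had a difference below 0, from -0.43 to -0.04. All 5 IL6 probes lay below the median probe, at percentiles 9.54 to 36.2. The mean of the 5 probes was lower in IUGR in 6 of 6 pairs, with a mean difference of -0.30 log2 and an unadjusted limma p of 0.0520. The share of named genes with 1 sign in all pairs on averaged probes is not given here, so this count does not mark IL6. IL1A, the cell-associated form of interleukin 1, differed by -0.19 ± 0.72, and 4 of 4 probes were below 0. IL10, which restrains macrophages, differed by 0.17 ± 0.80 with 1 probe at percentile 7.05. IL1A, IL1B and IL1RN lie close together on 1 chromosome in the RefSeq rabbit assembly mOryCun1.1, with 1 and 4 protein-coding genes between neighbours.

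Among 5 genes of the tumour necrosis factor family and its targets, 3 were higher and 2 lower by the mean, and none passed. TNFSF13B, a survival factor for B cells, had 2.33 to 4.29 (median 2.78) on the IUGR arrays and 2.19 to 2.77 (median 2.33) on the controls. IUGR was the higher member of all 6 pairs, by 0.05 to 1.52, with a mean of 0.54 ± 0.52 (1.45-fold, 95% interval 0.07 to 1.01). The unadjusted limma p was 0.0297, and the exact two-sided permutation p over the 64 sign changes of the pairs was 0.03125, the smallest this design allows. Neither p is adjusted for the 30 genes looked at, and the limma adjusted p was 0.982. Its probe lay at percentile 15.7, IUGR replicate 1 was far above the other IUGR arrays, and without pair 1 the difference was 0.34. The gene's 3 other probes differed by -0.32, -0.21 and -0.04, and the mean of all 4 by -0.01. TNFSF13, its close relative that also acts on B cells and plasma cells, had its probe at percentile 63.2. It ran from 6.12 to 7.05 (median 6.31) in IUGR and from 6.11 to 7.08 (median 6.76) in controls. The difference was -0.29 ± 0.47 (95% interval -0.72 to 0.14), lower in 4 of 6 pairs, and was -0.16 without pair 2. All 4 probes were below 0, from -0.29 to -0.13.

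TNF itself, the family's main inflammatory cytokine, ran from 1.93 to 4.68 (median 3.83) in IUGR and from 2.49 to 4.14 (median 2.88) in controls. The groups overlapped, and the difference was 0.61 ± 1.13, with IUGR higher in 4 of 6 pairs. It was 0.29 without pair 4 and 0.91 without pair 6. The other 4 TNF probes gave -0.26 to 0.04, so the size rests on the brightest probe, which lay below the median probe. TNFAIP6, a secreted hyaluronan-binding protein that TNF and IL1B induce, had 7 probes, and 7 of 7 were lower by the mean, from -0.96 to -0.32. On its brightest probe it ran from 5.24 to 6.21 (median 5.83) in IUGR and from 5.53 to 7.36 (median 5.93) in controls. The difference was -0.32 ± 0.82, lower in 3 of 6 pairs, and was -0.06 without pair 1. Control replicate 1 was highest on 5 of the 7 probes. The dimmest TNFAIP6 probe was lower in 6 of 6 pairs, with a difference of -0.88 ± 0.42 log2, and had the smallest unadjusted limma p of the 84 probes, 0.0012 (adjusted p = 0.982). Of the 84 probes, 3 had an unadjusted limma p under 0.05, which is 3.57% and so no larger a share than that of all probes. TNFRSF4, a costimulatory receptor of activated T cells, differed by 0.06 ± 0.19 at percentile 2.72.

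The chemokine genes under the symbol rule were 1 ligand and 2 receptors, and the rule found no symbol beginning with CCL or IFN among the 591 named genes. CXCL13 draws B cells into lymphoid follicles through its receptor CXCR5. CXCL13 ran from 1.79 to 4.76 (median 2.70) in IUGR and from 2.42 to 3.93 (median 3.26) in controls, a difference of -0.19 ± 1.27. Its 5 probes shared no array as their highest, and 4 of 5 differences were below 0. CXCR5 was wider, from 3.56 to 7.0 (median 5.23) in IUGR and from 3.07 to 5.74 (median 4.74) in controls. Its difference of 0.45 ± 0.89 came mostly from pair 6, at 2.16, and was 0.11 without that pair. CCR10, a receptor of lymphocytes that home to skin and mucosa, had the highest mean difference of the 30 genes, 0.77 ± 1.66. It ran from 2.02 to 6.66 (median 3.47) in IUGR and from 2.20 to 3.59 (median 2.95) in controls. IUGR replicate 2 alone read 6.66, and without pair 2 the difference was 0.17. CCR10 and CXCR5 had 1 probe each, so no second probe could be read for either.

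Of the Toll-like receptors and CD14, 3 of 4 genes lay above the median probe, and 3 of 4 were lower and 1 was higher by the mean, with a median of -0.17. CD14 binds bacterial lipopolysaccharide and hands it to TLR4 and its partner LY96. CD14, with 1 probe, ran from 7.21 to 8.07 (median 7.78) in IUGR and from 7.17 to 8.63 (median 7.90) in controls, a difference of -0.17 ± 0.50 (95% interval -0.62 to 0.29). TLR4 ran from 6.35 to 7.09 (median 6.62) in IUGR and from 6.30 to 7.0 (median 6.49) in controls, a difference of 0.08 ± 0.49 (95% interval -0.37 to 0.53). LY96 differed by -0.05 ± 0.47. For each of the 3 parts of this receptor complex the groups overlapped, with the highest CD14 array, control replicate 4, above all IUGR arrays. Without pair 4 the CD14 difference was -0.05.

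TLR2, which recognises bacterial lipopeptides, had the most negative difference among the brighter genes. It read 6.70 to 8.02 (median 7.55) on the IUGR arrays and 6.56 to 8.96 (median 7.98) on the control arrays. The groups overlapped, but IUGR was the lower member in 5 of 6 pairs, with differences from -1.57 to -0.06, and the higher in pair 3, by 1.13. The mean was -0.55 ± 1.00 (0.68-fold, 95% interval -1.39 to 0.28, unadjusted limma p = 0.163, exact permutation p = 0.219). Its second probe gave -0.58, again with IUGR lower in 5 of 6 pairs, and the third, at percentile 6.52, gave -0.35. The difference was -0.89 without pair 3 and -0.35 without pair 2. TLR3, a receptor of double-stranded RNA, differed by -0.18 ± 0.46 at percentile 29.6, and both probes were below 0.

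**Figure D3:**
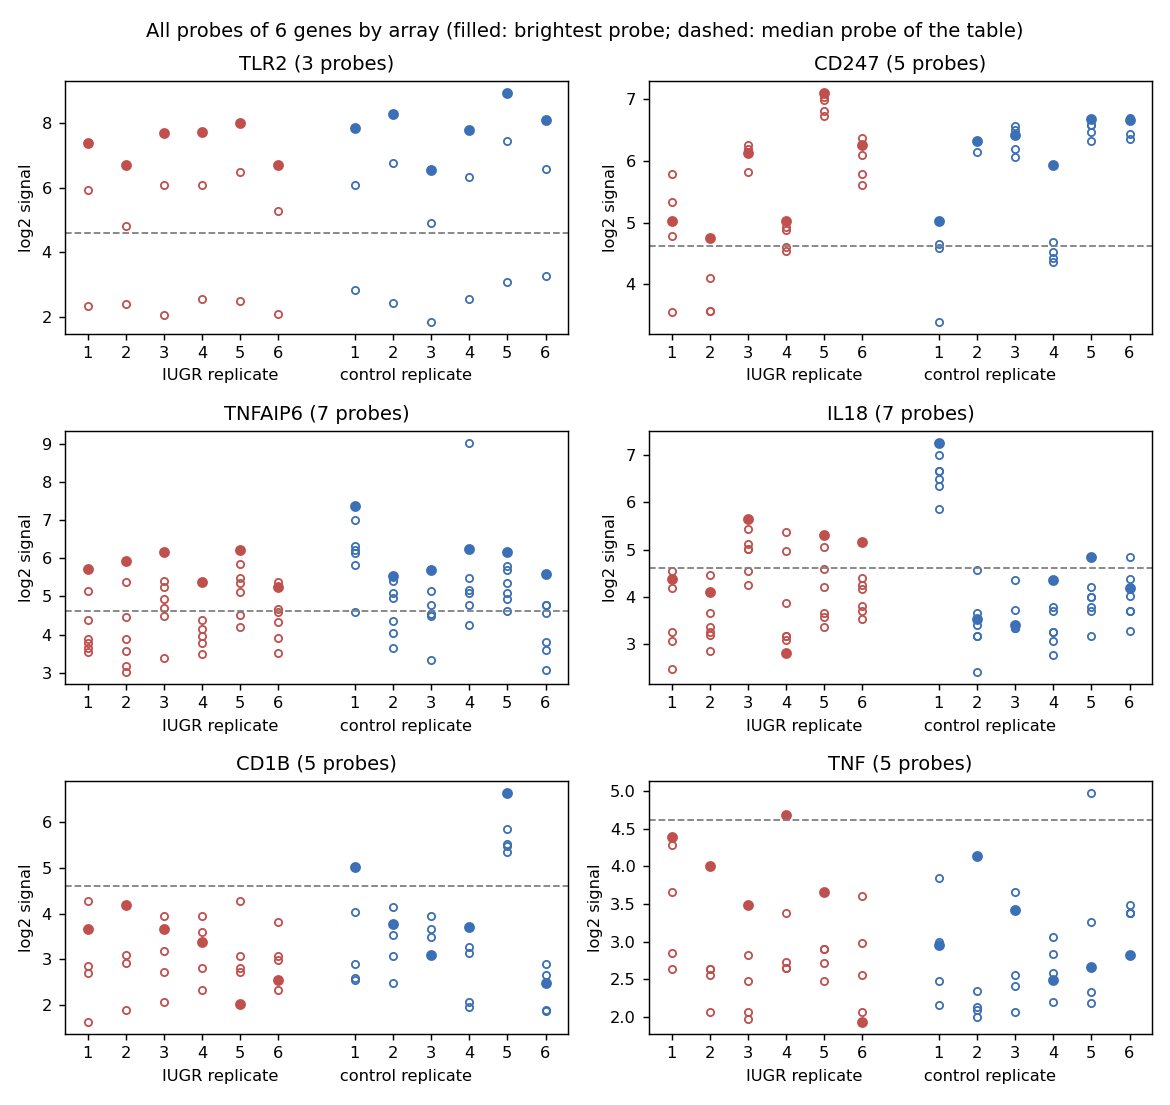
Log2 signal of every probe of 6 genes on each array, IUGR replicates in red at the left and control replicates in blue at the right, with the brightest probe filled and the median probe of the table dashed. All 7 IL18 probes peak in control replicate 1, all 5 CD1B probes in control replicate 5 and all 5 CD247 probes in IUGR replicate 5, while the 5 TNF probes have no common peak.

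Lymphocyte surface genes lay on both sides of the median probe, and 4 of 6 were higher by the mean, with a median of 0.14 and no call. CD3E, a chain of the T cell receptor complex that defines T cells, stayed between 1.96 and 3.26 (median 2.33) in IUGR and between 1.80 and 2.72 (median 2.19) in controls. Its difference was 0.20 ± 0.65, in 3 pairs each way, and 0.03 without pair 5. CD28, the T cell costimulator, was as dim, at percentile 7.09, and differed by -0.03 ± 0.67. CD247, the zeta chain of the T cell receptor that natural killer cells use as well, was above the median probe with all 5 of its probes. On the brightest, it ran from 4.76 to 7.11 (median 5.58) in IUGR and from 5.03 to 6.67 (median 6.37) in controls. The difference was -0.46 ± 0.70 (95% interval -1.06 to 0.15), with IUGR lower in 4 pairs, higher in 1 and equal in pair 1. All 5 probes were below 0, from -0.52 to -0.06, and all 5 were highest in IUGR replicate 5. Pair 2 held the widest gap, -1.56, and without pair 2 the difference was -0.24. CD4, found on helper T cells and in several species also on macrophages, ran from 5.29 to 6.64 (median 5.95) in IUGR and from 5.24 to 6.89 (median 5.74) in controls, a difference of 0.10 ± 0.52. CD5, of T cells and some B cells, differed by 0.17 ± 0.66. CD38, an enzyme on activated lymphocytes that consumes NAD, differed by 0.20 ± 0.65 on 1 probe and by 0.59 on the other.

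Antigen presentation was read through 4 genes of the CD1 family, which takes part in showing lipids to T cells, and CD86, which costimulates T cells from dendritic cells and macrophages. By the mean 4 of 5 were lower, with a median of -0.41 and no call. CD1B had the lowest mean of the 30 genes. It ran from 2.02 to 4.20 (median 3.52) in IUGR and from 2.49 to 6.64 (median 3.74) in controls, and its difference of -0.87 ± 1.96 was -0.12 without pair 5. All 5 CD1B probes were highest in control replicate 5, at 5.35 to 6.64. The probes did not share a sign, with differences from -0.92 to 0.19. CD86 read 2.18 to 3.25 (median 2.79) in IUGR and 2.25 to 6.92 (median 3.03) in controls. Its 1 probe reached 6.92 in control replicate 2 alone, and the difference of -0.81 ± 1.66 was -0.16 without pair 2. In the same array the brightest probes of SELE, an endothelial adhesion molecule, and of APOB, the main apolipoprotein of liver, stood at 9.85 and 8.07. The other 5 SELE probes and 2 APOB probes were not highest there. CD1C ran from 1.67 to 3.07 (median 2.71) in IUGR and from 2.56 to 3.48 (median 2.86) in controls, at percentile 18.1. Its difference was -0.41 ± 0.51 (95% interval -0.88 to 0.05), lower in 4 of 6 pairs. CD1A differed by -0.13 ± 0.86, although IUGR was higher in 4 of 6 pairs. CD1E differed by 0.01 ± 0.63, with IUGR lower in 5 of 6 pairs and higher by 1.24 in pair 3. Both lay below the median probe. The CD1 genes are related copies that neighbour each other on 1 chromosome of the same assembly, with 0 or 1 protein-coding genes between those next to each other, and cross-binding between them was not tested.

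CD63, a tetraspanin of lysosomes, granules and secreted vesicles that most cells make, had 1 of the narrowest spreads. It ran from 14.47 to 14.78 (median 14.56) in IUGR and from 14.46 to 14.91 (median 14.63) in controls. The difference was -0.09 ± 0.20 (0.94-fold, 95% interval -0.35 to 0.18), and 5 of 5 probes gave -0.15 to -0.07. Its level lies near the highest value of the table, 15.83, where differences may be compressed.

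Probe agreement divided the set. Of the 17 genes with 2 or more probes, 11 had all probes on 1 side of 0, 10 of them lower (58.8% of the 17) and 1, CD38, higher in IUGR (5.88%). Of the 343 named genes with 2 or more probes, 28% had all probes lower and 20.7% all higher, and no test was made of the difference. The 10 were TLR2, TLR3, CD247, CD28, CD63, IL1A, IL1RN, IL6, TNFAIP6 and TNFSF13. Some of these signs rest on small differences or dim probes. The CD28 probes gave -0.03 and -0.01 at percentiles 7.09 and 2.22, and the 4 IL1A probes lay at percentiles 6.04 to 19.3. CD247, CD63 and TNFSF13 had all their probes above the median probe. The 343 genes were not matched for level. Probes of a gene read the same RNA, so their shared sign adds no replicate. The 6 whose probes disagreed in sign were TNF, TNFSF13B, CD1B, CXCL13, IL18 and IL1B.

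**Figure D4:**
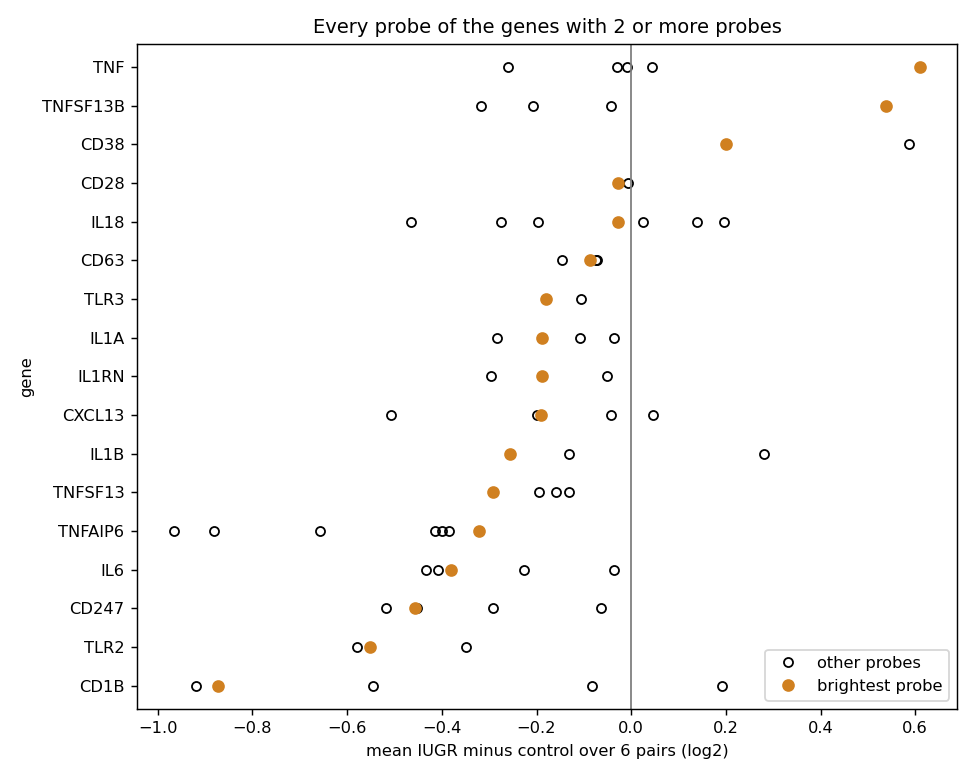
Mean IUGR minus control difference in log2 over the 6 pairs for each probe of the 17 genes with 2 or more probes, the brightest filled and the others open. For TNF and TNFSF13B the brightest probe lies at 0.61 and 0.54 and every other probe at or below 0.04, while all 7 TNFAIP6 probes lie from -0.96 to -0.32.

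The direction of the genes as a set differed between pairs. In pair 6, IUGR was lower for 20 of the 30 genes, with a median of -0.36 log2, against 0.01 over the named genes. In pair 4 it was lower for 19, with a median of -0.39 against -0.03. Pairs 3 and 5 went the other way, with 11 and 10 genes lower and medians of 0.12 and 0.16, against 0.03 and 0.07 over the named genes. Pairs 1 and 2 lay between, at -0.09 and 0.05. Over all pairs the median of -0.11 turned to 0.03 without pair 6, so its sign did not hold when 1 pair was left out. The SD of the medians over the pairs was 0.24 log2, larger than that median. Among the 11 brighter genes, the number lower in IUGR was 6, 7, 4, 7, 4 and 9 in pairs 1 to 6. The named genes above the median probe had 44.9%, 49.9%, 43.7%, 53.4%, 40.5% and 48.7% lower in the same pairs.

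**Figure D5:**
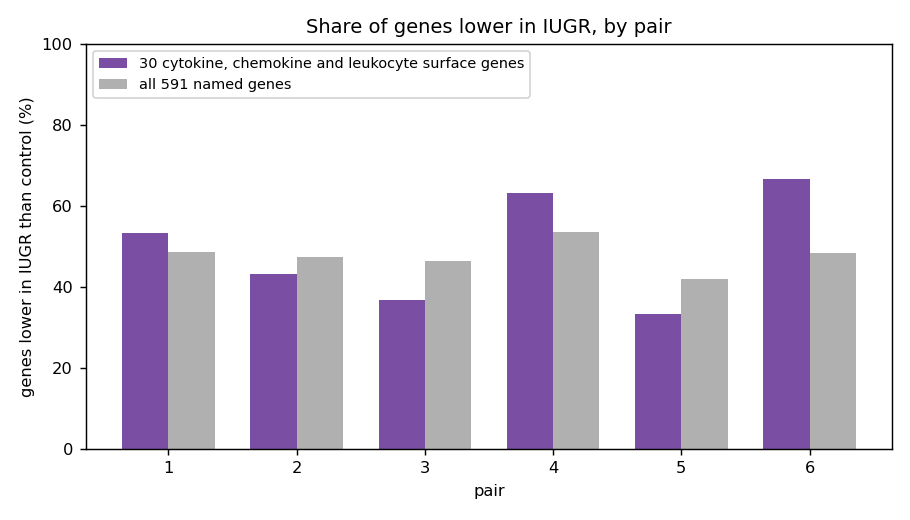
Percentage of genes with a lower signal in IUGR than in the control of the same pair, for the 30 genes described here (purple) and all 591 named genes (grey). The purple bars run from 33.3% in pair 5 to 66.7% in pair 6, and the grey ones from 42% to 53.5%.

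Other genes of immune signalling were read from a list of 74 symbols outside the rule, of which 10 were measured. By the mean 8 were lower and 2 higher in IUGR, where 48.4% of the named genes and 48% of all probes were lower. The median was -0.11, and 0 passed the adjusted or the unadjusted limma threshold of 0.05. Among the 8, CX3CR1 differed by -0.03 ± 0.54, with IUGR higher in 5 of 6 pairs. LY96 differed by -0.05 on its brightest probe, and 2 of its 5 probes were below 0. The count of 8 was not tested. VCAM1, by which leukocytes attach to vessel walls, differed by -0.15 ± 0.21, lower in 4 pairs, higher in 1 and equal in 1, and below 0 in 5 of 5 probes. SPP1, osteopontin, which macrophages secrete, differed by -0.41 ± 1.13. Its highest array was control replicate 4, at 11.59, which was also the highest array of 3 genes under the rule: CD14, IL1RN and TLR3. Of the named genes, 7.78% were highest on this array. In control replicate 4, CORO1A of leukocytes in general read 7.36, TLR2 7.79, IL1B 4.98 and LY96 7.78. Their highest values were 7.70 in control replicate 1, 8.96 in control replicate 5, 6.10 in IUGR replicate 3 and 8.04 in control replicate 2. The macrophage content of control replicate 4 was not tested. A further chemokine falls outside the rule by its symbol and was looked up after the other values had been seen. The array annotation calls it MCP-2, which the RefSeq table lists as a synonym of MCP-1, a monocyte chemoattractant, and the name MCP-1 used here rests on that synonym alone. It ran from 6.32 to 8.36 (median 7.85) in IUGR and from 6.23 to 10.22 (median 7.77) in controls, a difference of -0.45 ± 1.04. All 5 probes were highest in control replicate 6, and on the brightest control replicate 4 came next, at 9.31.

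Markers of the tissue and of other cells were read beside these genes. Of 10 heart muscle markers 4 were measured, MYH6, CKM, RYR2 and NPPA, with mean levels from 13.29 to 14.88 on the IUGR arrays and from 13.22 to 14.03 on the controls. Of 10 monocyte and macrophage markers only CD14 had a name, of 8 neutrophil and 8 B cell markers none, and of 10 T cell markers 4, with mean levels of 3.29 to 3.87 in IUGR and 3.20 to 3.76 in controls. CORO1A, made by leukocytes in general, differed by 0.17 ± 0.35, at 7.03 to 7.59 in IUGR and 6.96 to 7.70 in controls. HBA, a haemoglobin chain that reports blood in the sample, was higher in IUGR in 6 of 6 pairs, by 0.41 ± 0.31. Blood also carries leukocytes, and its part in the values above was not tested. Of 5 endothelial markers 2 were measured: KDR, through which VEGF acts on vessels, was higher in IUGR in 6 of 6 pairs, by 0.43 ± 0.30, and VWF, a clotting protein of vessel walls, differed by 0.12 ± 1.13. The unadjusted limma p was 0.0169 for KDR and 0.0224 for HBA, with an adjusted p of 0.982 for both, and the part of vessel content was not tested either. SFTPB, a lung surfactant protein, was highest in control replicate 1 on 5 of 5 probes. The same array was highest for IL18. On the brightest SFTPB probe it read 12.51 and the other arrays 10.33 to 11.99, with 11.99 in control replicate 4 and in IUGR replicate 3. On the dimmest SFTPB probe control replicate 1 read 11.75 and the next array 6.79. AHSG, a liver plasma protein, was highest in control replicate 6 at 11.74. It also read 10.38 in control replicate 1, 10.14 in IUGR replicate 3 and 10.24 in IUGR replicate 6. The other measured lung and liver markers peaked elsewhere on their brightest probes. SCGB1A1 of lung read 3.24 in control replicate 1, and its highest array was control replicate 2, at 4.82. In control replicate 6, APOB and CRP of liver read 2.66 and 3.81, below their highest values of 8.07 and 4.10. All 7 IL18 probes were highest in control replicate 1 and all 5 MCP-1 probes in control replicate 6. IL6 was highest in control replicate 6 on only 1 of its 5 probes. The part of admixed lung or liver tissue in the IL18, IL6 and MCP-1 values of control replicates 1 and 6 was not tested.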

How the data were processed

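Single-colour signals of 12 arrays (6 IUGR, 6 control) were used as deposited: log2 values that the authors made with RMA (version not stated), per the submitters' processing notes. The highest value, 15.83, is why the scale was read as base 2. The sources used here do not give scanner software, background method or probe filters. From each sample 500 ng of RNA was labelled, with integrity numbers from 9.3 to 9.9, per the labels' protocols. Symbols were available for 1673 probes (3.84%) and were updated through accessions, symbols and synonyms in the RefSeq table of mOryCun1.1. For the 30 genes, 26 matched by accession and 4 by symbol.

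The test was limma's moderated one (version 3.58.1, R 4.3.3), two-sided with the pair as block (adjusted by Benjamini-Hochberg over 43603 probes, threshold 0.05). The code was tested on simulated data. Deviations from group means correlated within every pair, at 0.129 to 0.254, so the pair numbers of the labels were used as given. The labels name no litter or mother, and the p-values then cover only how these 6 pairs spread, which may be partly technical. For arrays the number of pairs limits precision: the median standard error of a difference was 0.26 log2 over the 30 genes.

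The text gives full values for genes with 1 sign in all pairs, an unadjusted p under 0.05, the 5 largest differences each way, a probe above the median or an outlying array, and the others by difference. Genes and lists were chosen with earlier results of these data known. The alternatives were no block, an intensity trend, an unmoderated paired test, quantile normalisation, median centring, brighter probes only, the mean or the second probe of a gene, and leaving out each pair.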

Additional observations from a re-analysis of the deposited data

Results flagged for a closer look

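The brightest probe of each gene was screened in both groups for 1 array far from the other 5 by Dixon's test, and 6 of 60 groups had one. For normally distributed values the test flags about 1 in 20, or 3. The screen covered these 30 genes only, and array signals need not be normal. Whether 6 is more than other genes of the table would give is therefore not known. In IUGR replicate 1, TNFSF13B read 4.29 log2, with the other IUGR arrays from 2.33 to 2.91, and the difference without pair 1 was 0.34 against 0.54 with it. In IUGR replicate 4, TNFSF13 read 7.05, the other 5 between 6.12 and 6.42, and leaving out pair 4 gave -0.37 against -0.29 with it. The other 4 lay in control arrays. IL18 read 7.26 in control replicate 1 (others 3.42 to 4.84), where its other 6 probes were also highest. CD86 read 6.92 in control replicate 2 (others 2.25 to 3.56) on its 1 probe. IL1RN read 8.40 in control replicate 4 (others 6.79 to 7.21), and 2 of its 3 probes were highest there. IL6 read 5.76 in control replicate 6 (others 2.25 to 3.53), and none of its other 4 probes was highest there. CD1B in control replicate 5 and CCR10 in IUGR replicate 2, named in the text for 1 high array, did not reach the critical value.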

How the results depend on the processing

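No probe and none of the 30 genes passed the adjusted threshold under any alternative in which it was counted (lowest adjusted p of a gene 0.897). The fit without the replicate block gave the same 0 calls. The count of genes at an unadjusted p under 0.05, 1 as reported, was 0 with no replicate block, 0 in the ordinary paired test, 0 with brighter probes only, 0 with the mean of all probes and 0 with the second probe, and lay between 1 and 2 on leaving out a pair, with 2 without pair 1 or 3. The count with 1 sign in every pair, also 1, was 0 with brighter probes only and 0 with the second probe, and lay between 1 and 3 on leaving out a pair, with 3 without pair 3 and 2 without pair 6. Brighter probes and second probes leave 11 and 17 genes to count. For the remaining settings the cause was not tested. The median over the genes, -0.11, ran from -0.19 without pair 3 to 0.026 without pair 6, and was -0.19 for the brighter genes, -0.16 with second probes and -0.09 with probes averaged per gene. Of 388 gene differences recomputed, 22 changed sign, and 14 of 30 genes kept theirs throughout. The fits without the block, with the trend, unmoderated or on brighter probes only give the same difference as reported. No sign could change in these, nor for the 13 genes with 1 probe when probes were averaged. With the second probe the sign turned for CD1B (0.19), IL18 (0.20), IL1B (0.28), TNF (-0.26) and TNFSF13B (-0.32), and for TNFSF13B with its probes averaged (-0.0073). Leaving out 1 pair turned 12 genes, whose differences ran from -0.29 to 0.12 for CD1A, -0.23 to 0.11 for CD1E, -0.20 to 0.15 for CD28, -0.025 to 0.32 for CD38, -0.052 to 0.22 for CD4, -0.062 to 0.31 for CD5, -0.54 to 0.055 for CXCL13, -0.028 to 0.39 for IL10, -0.48 to 0.54 for IL18, -0.36 to 0.013 for IL1RN, -0.67 to 0.32 for IL6 and -0.063 to 0.23 for TLR4.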
